A study of Mus musculus with 4 samples.

Results

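Signals of 10 DNA replication genes were read on 4 Affymetrix mouse expression arrays of primary embryonic fibroblasts. The genes were Mcm2, Mcm3, Mcm4, Mcm5, Mcm6, Mcm7, Pcna, Fen1, Lig1 and Rpa2. They were taken by gene symbol from the platform annotation, which gave 22 probe sets of the 22690 on the array, and 10 of the 12393 genes named by a single symbol. The genes were chosen partly on these measured signals, with earlier results known that included the hypoxia and normoxia values of Fen1. Their values are therefore a description and were not tested.

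The tri-CH1 fibroblasts lack the CH1 domain in both p300 alleles and in a single CBP allele, and the wild-type fibroblasts carry neither deletion. p300 and CBP are related transcriptional coactivators, and CH1 is a protein-binding module whose known partners include HIF-1α, the oxygen-regulated transcription factor. All cells were primary fibroblasts of e14.5 embryos and were subconfluent when they received medium equilibrated beforehand to the oxygen level of the treatment. They were held for 6 h under hypoxia, with 0.1% oxygen, or under normoxia, with 21%. The chamber was kept at 37 °C and at 5% carbon dioxide. The 4 groups were tri-CH1 in hypoxia, tri-CH1 in normoxia, wild type in hypoxia and wild type in normoxia, with 1 array each. The labels do not say how many embryos or cultures stood behind an array.

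Replication begins with licensing, in which the origin recognition complex, Cdc6 and Cdt1 load the ring-shaped Mcm2 to Mcm7 helicase onto DNA before S phase. At the fork, replication protein A, of which Rpa2 is a subunit, covers single-stranded DNA, and the sliding clamp Pcna holds polymerases and processing enzymes on the template. On the lagging strand, the flap endonuclease Fen1 trims displaced ends and the ligase Lig1 seals the nick, both while bound to Pcna. Many of these genes are known targets of E2F transcription factors and are abundant in dividing cells such as cultured fibroblasts.

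The deposited values are background-corrected signal intensities, scaled on each array to a common target of 500. The scale factors were between 3.46 and 10.3, so the background per array came to between 139 and 393 after scaling. The wild-type normoxia array had the lowest scale factor and was from another array lot. It stands in the wild-type hypoxia change and in the genotype difference in normoxia. In these, an effect of lot cannot be told apart from that of oxygen or genotype. Of 8 fibroblast markers, 7 reached a signal of 500 on every array, and the summed fibroblast signal was between 133297 and 144349. Single fibroblast markers differed more between arrays: Thy1 was at 3274 and 3837 in tri-CH1 against 12389 and 13148 in wild type, hypoxia before normoxia, and Pdgfrb was between 486 and 1337. Their part in the results was not tested. Summed signals of 6 epithelial markers were between 896 and 1204 and of 4 endothelial markers between 458 and 567. Those of 6 blood and macrophage markers were between 1906 and 2392, of 4 muscle markers between 678 and 871 and of 4 neural markers between 899 and 1362. The macrophage-associated genes Lyz2 and Csf1r reached 500 on every array, while the leukocyte gene Ptprc was at most 111. The epithelial adhesion genes Cdh1 and Epcam and the endothelial gene Pecam1 were under 40 on each array. Other markers of these lists were higher. The epithelial Krt18 was at 588 in wild-type hypoxia and Krt8 at 502 in tri-CH1 normoxia, and the endothelial Kdr was between 302 and 391. The neural marker Nes was between 568 and 1027.

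A probe set counted in a comparison when the brighter of its 2 arrays reached 500, and it rose or fell when the signals differed by 2-fold or more after values under 200 were raised to 200. With 1 array per group there was no replicate error and no test, and the number of arrays limits the precision. The only internal spread was that between probe sets of a gene on the same arrays, which does not measure error between arrays or cultures. It was taken over 1059 genes with exactly 2 probe sets that reached 500 on an array. As an SD of log2 hypoxia changes for a single probe set, it was 0.31 in tri-CH1 and 0.26 in wild type. Log2 changes below are hypoxia minus normoxia or tri-CH1 minus wild type. In these bulk samples, fewer replicating cells and less RNA per cell cannot be told apart.

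Fen1 fell in hypoxia in both genotypes by its brighter probe set, 1436454_x_at. This probe set had a signal of 206 in tri-CH1 hypoxia against 1368 in tri-CH1 normoxia, and of 205 in wild-type hypoxia against 906 in wild-type normoxia. The hypoxic signals thus lay close together and just above the level of 200, while the normoxic signals were well apart. The decrease was 6.65-fold in tri-CH1, a log2 change of -2.73, and 4.41-fold in wild type, a log2 change of -2.14. With values raised to 400 in place of 200, the log2 changes became -1.77 and -1.18 in that order of genotypes.

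The other Fen1 probe set, 1421731_a_at, did not pass the 2-fold limit. It had a signal of 350.2 in tri-CH1 hypoxia against 495 in tri-CH1 normoxia, and of 428 in wild-type hypoxia against 628 in wild-type normoxia. These are log2 changes of -0.50 in tri-CH1 and -0.55 in wild type. Both probe sets were thus lower in hypoxia in both genotypes, but they disagreed in size by a log2 difference of -2.23 in tri-CH1 and -1.59 in wild type. Among the 1059 genes with 2 such probe sets, the median disagreement was 0.23 in tri-CH1 and 0.20 in wild type, and 3 genes, Fen1 included, had a gap as large as that of Fen1 in each genotype.

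The Fen1 probe sets also ordered the genotypes differently in normoxia. By 1436454_x_at the signal was higher in tri-CH1, 1368 against 906 in wild type, a log2 difference of 0.60. By 1421731_a_at it was lower in tri-CH1, 495 against 628 in wild type, a log2 difference of -0.34. Neither reached 2-fold. In hypoxia 1436454_x_at was at 206 in tri-CH1 and 205 in wild type, and 1421731_a_at was at 350.2 and 428 in the same order. On this array design the ending _x_at marks probes that can also match other sequences, and _a_at marks probes shared by transcripts of a single gene. Which transcripts each Fen1 probe set detected was not tested.

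**Figure D1:**
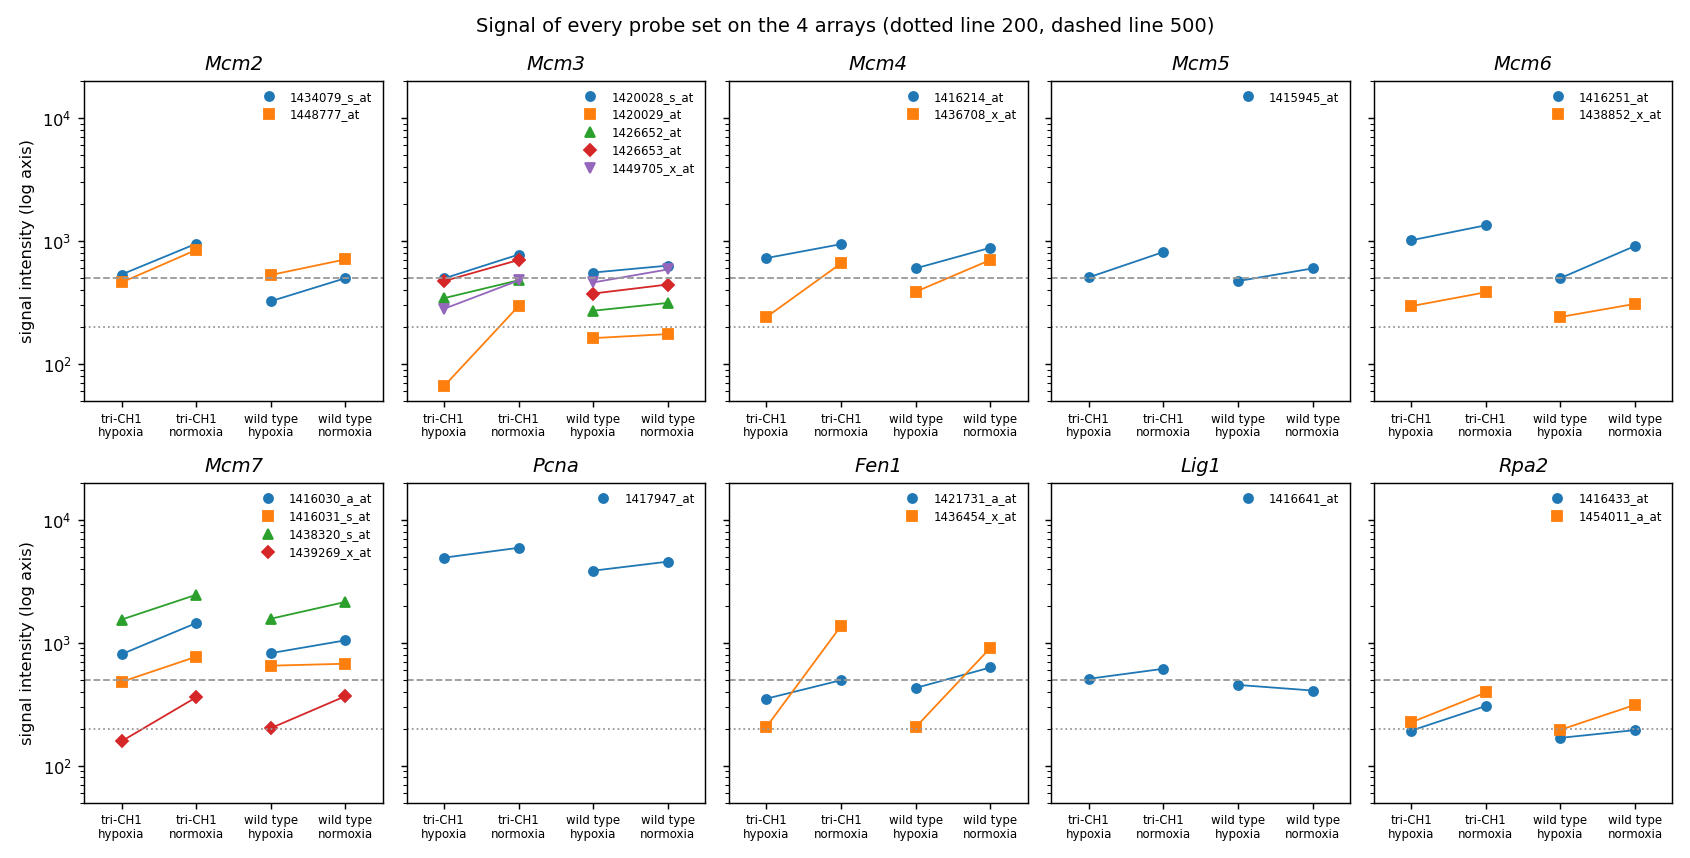
Signal intensity on a log axis for each of the 22 probe sets on the 4 arrays, with a panel for each of the 10 genes, a marker for each probe set, and lines joining hypoxia to normoxia within a genotype. Points have no error bars because each group is 1 array. The Fen1 probe set 1436454_x_at drops to 206 in tri-CH1 hypoxia and 205 in wild-type hypoxia, far below its normoxic signals, and its companion 1421731_a_at has a shallower slope.

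Apart from Fen1, the helicase gene Mcm4 passed the 2-fold limit in tri-CH1. Of the 14 member probe sets bright enough to count in tri-CH1, 2 fell and 0 rose, against 1.19% lower and 3.27% higher among 6294 probe sets of all genes. Of the 13 that counted in wild type, 1 fell and 0 rose, against 1.34% lower and 3.22% higher among 6060. The members were chosen with the Fen1 result known, so nothing is read from these shares.

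The Mcm4 probe set that fell, 1436708_x_at, had a signal of 240.4 in tri-CH1 hypoxia against 657 in tri-CH1 normoxia, and of 386 in wild-type hypoxia against 700.5 in wild-type normoxia. Its log2 changes were -1.45 in tri-CH1, a 2.73-fold decrease, and -0.86 in wild type. With values raised to 400 the call was lost, at -0.72 in tri-CH1 and -0.81 in wild type, and with a minimum signal of 1000 the probe set no longer counted. The brighter Mcm4 probe set, 1416214_at, had 726 against 942 in tri-CH1 and 598 against 880 in wild type, hypoxia before normoxia. Its log2 changes of -0.38 in tri-CH1 and -0.56 in wild type put the genotypes in the opposite order. Mcm4 is part of the Mcm4, Mcm6 and Mcm7 core that carries helicase activity in vitro.

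Mcm6, another subunit of that core, had a signal of 1013 in tri-CH1 hypoxia against 1342 in tri-CH1 normoxia, and of 499 in wild-type hypoxia against 911 in wild-type normoxia, by 1416251_at. Its log2 changes were -0.41 in tri-CH1 and -0.87 in wild type, so its change was nearer to 0 in tri-CH1 than in wild type. The dimmer 1438852_x_at, at most 383 on any array, gave -0.38 and -0.35 and did not show that order.

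Mcm7, whose gene also carries a microRNA cluster in an intron, had 4 probe sets. The brightest, 1438320_s_at, was at 1541 in tri-CH1 hypoxia against 2452 in tri-CH1 normoxia, and at 1566 in wild-type hypoxia against 2144 in wild-type normoxia. This gave log2 changes of -0.67 in tri-CH1 and -0.45 in wild type. Over the 4 probe sets the log2 changes were between -0.85 and -0.67 in tri-CH1 and between -0.87 and -0.05 in wild type. The -0.85 is a bound for 1439269_x_at, whose signal of 158 in tri-CH1 hypoxia was raised to 200, and without that step its log2 change was -1.19. In wild type the values ran to that of 1416031_s_at, at 650 in hypoxia and 674 in normoxia.

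Mcm2, the subunit that also binds histones, was at 460 in tri-CH1 hypoxia against 845 in tri-CH1 normoxia, and at 529 in wild-type hypoxia against 708 in wild-type normoxia, by 1448777_at. The log2 changes were -0.88 in tri-CH1 and -0.42 in wild type, and 1434079_s_at gave -0.83 and -0.62. Mcm5, which meets Mcm2 at the gate of the ring, had 506 in tri-CH1 hypoxia against 814 in tri-CH1 normoxia, and 472 in wild-type hypoxia against 598 in wild-type normoxia. Its single probe set, 1415945_at, gave -0.69 in tri-CH1 and -0.34 in wild type.

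Mcm3, the neighbour of Mcm5 in the ring, had 5 probe sets. The brightest, 1420028_s_at, was at 496 in tri-CH1 hypoxia against 775 in tri-CH1 normoxia, and at 554 in wild-type hypoxia against 630.1 in wild-type normoxia, log2 changes of -0.65 and -0.19. The 5 log2 changes were between -0.77 and -0.48 in tri-CH1 and between -0.35 and 0.00 in wild type. The value of 0.00 came from 1420029_at, which was under 200 on both wild-type arrays, at 162 in hypoxia and 175 in normoxia. In tri-CH1 that probe set was at 65.8 in hypoxia against 296 in normoxia, so its hypoxic signal has only a bound.

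Taken by their brightest probe sets, Mcm2 to Mcm7 had a median log2 change of -0.66 in tri-CH1, between -0.88 and -0.38, and of -0.44 in wild type, between -0.87 and -0.19. None of these 6 values reached 2-fold in either genotype. The median over 4645 genes with a signal of 500 on an array was -0.03 in tri-CH1 and -0.05 in wild type.

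**Figure D2:**
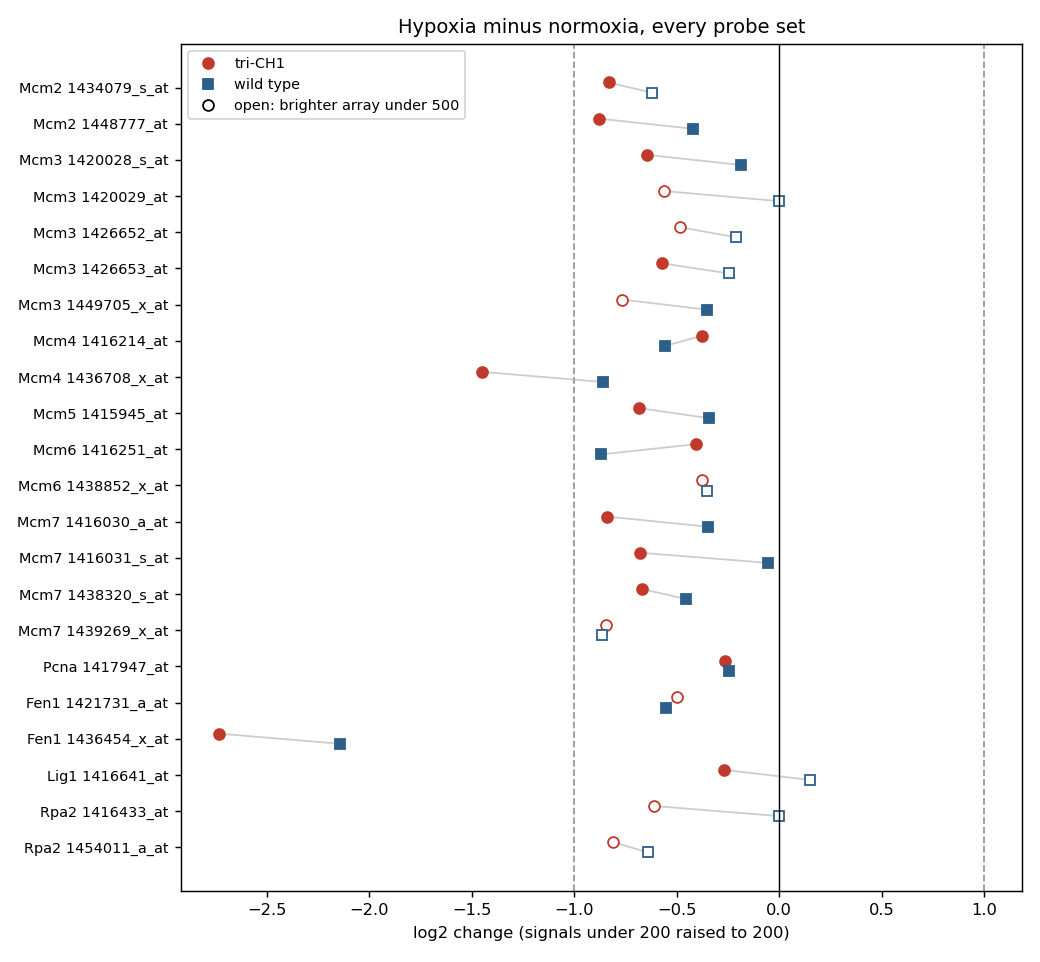
Log2 change, hypoxia minus normoxia, of each of the 22 probe sets in tri-CH1 (circles) and wild type (squares), after signals under 200 were raised to 200; open symbols mark comparisons whose brighter array was under 500, and dashed lines mark 2-fold. Fen1 1436454_x_at stands at -2.73 and -2.14 and Mcm4 1436708_x_at at -1.45 in tri-CH1, while the other points lie between the dashed lines.

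The sequences upstream of the annotated starts were searched for motif letters, since the Mcm genes were lower together in hypoxia and are known E2F targets. RefSeq promoter windows of GRCm38.p6, from 250 bases before to 50 after a start, were matched by symbol for 9 of the 10 genes, in 13 windows, and Mcm4 was not among them. The E2F words searched were TTTCGCGC, TTTGGCGC, TTTCCCGC and TTTGCCGC on both strands. These words can overlap one another when they lie on opposite strands. The 250 bases upstream are shown for Mcm5, Mcm6 and Mcm7, which hold E2F words there, in capitals, and for the second Fen1 start, which holds none and has the hypoxia response cores ACGTG or GCGTG in capitals. They lie at chr8:75109259-75109508 on the plus strand for Mcm5, and on the minus strand at chr1:128359706-128359955 for Mcm6, chr5:138171884-138172133 for Mcm7 and chr19:10203922-10204171 for Fen1, and each reads 5′ to 3′ toward the start.
Mcm5: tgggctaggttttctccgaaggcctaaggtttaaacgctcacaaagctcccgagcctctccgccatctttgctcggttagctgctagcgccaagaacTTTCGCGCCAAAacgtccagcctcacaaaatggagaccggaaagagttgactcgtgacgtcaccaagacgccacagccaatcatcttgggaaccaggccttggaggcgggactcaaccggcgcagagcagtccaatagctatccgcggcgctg
Mcm6: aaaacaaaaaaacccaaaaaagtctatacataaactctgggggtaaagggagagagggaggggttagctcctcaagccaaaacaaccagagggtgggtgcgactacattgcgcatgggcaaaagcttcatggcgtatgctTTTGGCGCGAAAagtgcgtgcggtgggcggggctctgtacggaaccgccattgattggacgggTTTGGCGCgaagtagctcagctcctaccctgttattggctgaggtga
Mcm7: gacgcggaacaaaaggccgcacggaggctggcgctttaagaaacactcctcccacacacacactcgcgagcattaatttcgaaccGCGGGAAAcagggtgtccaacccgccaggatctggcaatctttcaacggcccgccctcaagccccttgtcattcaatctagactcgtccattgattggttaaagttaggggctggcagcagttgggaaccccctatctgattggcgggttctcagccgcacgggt
Fen1: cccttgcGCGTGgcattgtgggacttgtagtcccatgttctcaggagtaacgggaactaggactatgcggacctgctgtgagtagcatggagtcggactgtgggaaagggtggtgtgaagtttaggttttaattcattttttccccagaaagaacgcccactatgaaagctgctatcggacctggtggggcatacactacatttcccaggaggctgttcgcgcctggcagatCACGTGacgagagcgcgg

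An E2F word was found in a window of Mcm3, Mcm5, Mcm6, Mcm7 and Lig1, 5 of the 9 genes, against 2.6% of 27025 genes with a window. By window it was 5 of 13, against 2.26% of 32851. The Mcm genes were searched as known E2F targets, so nothing is read from these shares. In Mcm6 a forward and a reverse word overlap between bases -110 and -99 and a further word lies at -47 to -40, and in Mcm5 an overlapping pair lies between -153 and -142. In Mcm3 the words lie after the start, at 20 to 27 and 39 to 46, and that of Lig1 at 27 to 34 of its second window. The windows of Mcm2, Pcna, Fen1 and Rpa2 did not hold these letters. Genes with and without the letters overlapped in their hypoxia changes by the brightest probe set. In tri-CH1 the 5 genes with them had log2 changes between -0.69 and -0.27, and the 4 genes without them between -2.73 and -0.27. In wild type these were between -0.87 and 0.15 and between -2.14 and -0.24. The lowest values without the letters are those of Fen1 1436454_x_at, on which the Fen1 probe sets disagree. A link to E2F was not tested.

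The hypoxia response core, ACGTG or GCGTG on either strand, was found for 6 of the 9 genes and for 46.7% of all genes. In the second Fen1 window 2 of these cores overlap as a palindrome between bases -18 and -13. The CCAAT box, also searched on both strands, was found for 7 of the 9 genes and for 41.1% of all genes. A match is a description of letters, and binding was not measured.

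**Figure D3:**
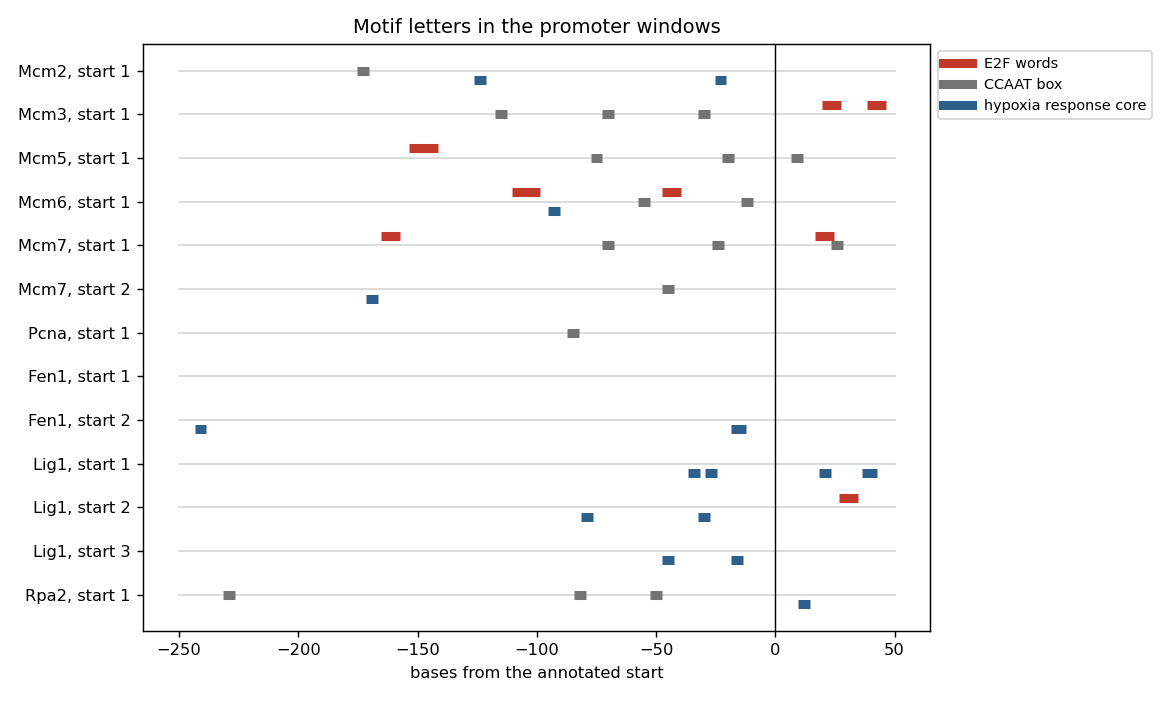
Positions of motif letters in the 13 promoter windows of 9 genes, in bases from each annotated start (the vertical line at 0), with E2F words, CCAAT boxes and hypoxia response cores as coloured bars. E2F words appear before the start in Mcm5, Mcm6 and Mcm7 and after it in Mcm3, Mcm7 and Lig1, and the first Fen1 window holds none of the 3 kinds.

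The clamp Pcna was bright on every array and had small oxygen changes. Its probe set 1417947_at was at 4914 in tri-CH1 hypoxia against 5910.2 in tri-CH1 normoxia, and at 3851 in wild-type hypoxia against 4561 in wild-type normoxia. The log2 changes of -0.27 in tri-CH1 and -0.24 in wild type were nearly equal. Both were smaller in size than the SD between probe sets of a gene, which does not measure error between arrays.

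Lig1, the ligase that seals Okazaki fragments, was the exception in direction. Its probe set 1416641_at was at 508 in tri-CH1 hypoxia against 613 in tri-CH1 normoxia, and at 453 in wild-type hypoxia against 408 in wild-type normoxia. The log2 change was -0.27 in tri-CH1 and 0.15 in wild type, where neither array reached 500. Lig1 was thus higher in hypoxia in wild type, by less than the SD between probe sets, which does not measure error between arrays.

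Rpa2, the middle subunit of replication protein A, stayed under 500 on each array. Its brighter probe set, 1454011_a_at, was at 224 in tri-CH1 hypoxia against 393 in tri-CH1 normoxia, and at 196 in wild-type hypoxia against 312 in wild-type normoxia. The log2 change was -0.81 in tri-CH1 and, with the hypoxic value raised to 200, at least as far below 0 as -0.64 in wild type. The dimmer 1416433_at was under 200 on 3 arrays and at 306 in tri-CH1 normoxia, so its oxygen change has only a bound in tri-CH1 and no value in wild type.

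Counted by sign alone, with no minimum signal and before any value was raised, the hypoxic signal was below the normoxic one for 22 of the 22 probe sets in tri-CH1 and 21 of 22 in wild type. Among 20380 probe sets with 1 symbol, 54.8% were lower in tri-CH1 and 47.7% in wild type. Among probe sets bright enough to count, these shares were 53.5% and 56.8%. Probe sets of a gene share their transcripts, so the 22 signs are not independent. At 1.5-fold or more, 9 of the 14 probe sets that counted in tri-CH1 were lower, against 6.83% of all probe sets, and 3 of 13 in wild type, against 7.15%.

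The hypoxia changes were compared between the genotypes by the tri-CH1 log2 change minus the wild-type one. The 2 changes share no array, and the wild-type change holds the array from another lot. This difference had a median of -0.28 over the 10 genes, between -0.59 for Fen1 and 0.46 for Mcm6, against 0.03 over 4645 genes. With each array scaled to the same median, the median over the 10 genes was -0.14, but that scaling also moves all genes. Under it, the median hypoxia change of the 10 genes minus that of all genes was -0.622 in tri-CH1 and -0.385 in wild type. As deposited, these gaps were -0.625 and -0.385. The scaling shifts the log2 values of all genes on an array alike, so it can change these gaps only through the raising of low signals. Their likeness before and after scaling is therefore no check on the difference between genotypes, and nothing is read from it. The deposited difference between genotypes was below 0 for 13 of the 16 member probe sets that reached 500 on an array, against 47.1% of 6811 probe sets. The 3 others were 1416214_at of Mcm4, 1416251_at of Mcm6 and 1421731_a_at of Fen1, at 0.18, 0.46 and 0.06.

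Between the genotypes in normoxia, no member probe set rose or fell by 2-fold. Of 16 that counted, 0 were lower and 0 higher, against 4.00% lower and 3.16% higher among 6304 probe sets. By sign alone, with no minimum signal, 18 of the 22 were higher in tri-CH1, against 60.0% of 20380. At 1.5-fold or more 4 of the 16 were higher, against 9.68% of all. The median log2 difference of the 10 genes was 0.35, between 0.10 for Mcm4 and 0.60 for Fen1, against 0.03 over 4645 genes. Scaling each array to the same median moved the median of the 10 genes to 0.13 and that of all genes to -0.19, and left 15 of the 22 probe sets higher. The tri-CH1 normoxia array stands in this comparison and in the tri-CH1 hypoxia comparison with opposite signs, so a high value on it raises the genotype difference and lowers the hypoxia change. The wild-type normoxia array, the other array of this comparison, was from another lot, and lot and genotype cannot be told apart here.

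The largest genotype differences in normoxia were those of Mcm2 and Mcm3. Mcm2 by 1434079_s_at was at 950 in tri-CH1 against 498 in wild type, a log2 difference of 0.93, while 1448777_at gave 0.26. Mcm3 by 1426653_at was at 700.5 in tri-CH1 against 442 in wild type, a log2 difference of 0.66, while 1449705_x_at gave -0.30. The probe sets of these genes thus disagreed by more than the median gap of 0.30 over 1059 genes with exactly 2 bright probe sets in this comparison. For Mcm3 the pair given is the highest and the lowest of its probe sets, so its gap is wide by choice.

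Between the genotypes in hypoxia, Mcm6 was higher in tri-CH1. Its probe set 1416251_at was at 1013 in tri-CH1 against 499 in wild type, a 2.03-fold difference, or 1.02 on the log2 scale. The dimmer 1438852_x_at was at 295 against 241 in the same order, a log2 difference of 0.29. Of 11 member probe sets that counted, 1 was higher and 0 lower, against 3.62% higher and 3.94% lower among 6186. The Mcm6 value lay just past the limit and was 0.98 with quantile normalization, 0.99 with cyclic loess and 0.94 with scaling to the same median, each under 2-fold. The next largest was Mcm2 by 1434079_s_at, at 534 in tri-CH1 against 324 in wild type, a log2 difference of 0.72. At 1.5-fold or more 2 of the 11 were higher, against 10.4% of all. By sign alone 12 of the 22 probe sets were higher in tri-CH1, against 53.5% of 20380. The median log2 difference of the 10 genes was 0.13, against 0.05 over 4645 genes, and it was 0.05 with values raised to 400.

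**Figure D4:**
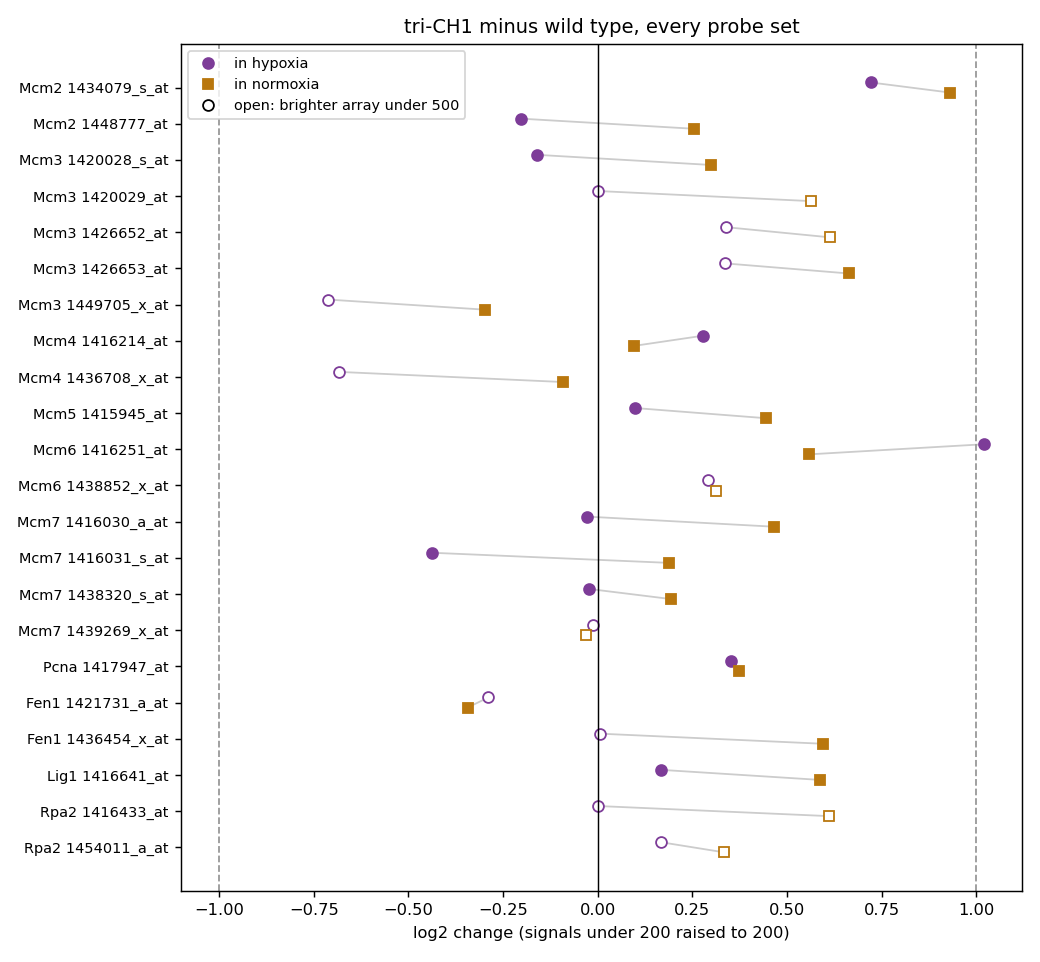
Log2 difference, tri-CH1 minus wild type, of each of the 22 probe sets in hypoxia (circles) and in normoxia (squares), after signals under 200 were raised to 200; open symbols mark comparisons whose brighter array was under 500, and dashed lines mark 2-fold. Most normoxia points lie to the right of 0, and 1 hypoxia point, Mcm6 1416251_at, lies past 2-fold at 1.02.

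Both decreases past 2-fold came from probe sets whose names end in _x_at, which 5 of the genes have beside others. In tri-CH1 the _x_at log2 change minus the mean of the gene's others was -2.23 for Fen1, -1.07 for Mcm4, -0.20 for Mcm3, -0.12 for Mcm7 and 0.03 for Mcm6. In wild type it was -1.59 for Fen1, -0.30 for Mcm4, -0.19 for Mcm3, -0.58 for Mcm7 and 0.51 for Mcm6. Over 371 genes with both kinds of probe set at 500 on an array, this quantity had a median of 0.01 and an SD of 0.40 in tri-CH1, and a median of -0.05 and an SD of 0.34 in wild type. The member values are unlike these, since they also use probe sets under 500. Among those are the _x_at probe sets of Mcm6 and Mcm7, at most 383 and 367 on any array. Without the _x_at probe sets, a choice made after seeing the data, 0 member probe sets fell in tri-CH1 and 0 in wild type, and the median log2 changes of the 10 genes were -0.57 in tri-CH1 and -0.44 in wild type.

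A wider list of 92 replication genes, written with earlier results of these data known, gave the setting. Of these, 79 were on the array and 42 reached 500 on an array by their brightest probe set. Between oxygen levels 1 of the 40 that counted in tri-CH1 fell and 0 rose, against 0.987% lower and 3.19% higher among 4358 genes. In wild type 1 of the 32 that counted fell and 0 rose, against 1.19% lower and 3.05% higher among 4125 genes. Of the 42 genes, 35 had a lower hypoxic signal in tri-CH1 and 36 in wild type, against 53.6% and 56.9% of 4645 genes. The median log2 change was -0.36 in tri-CH1 and -0.27 in wild type, nearer to 0 than the -0.65 and -0.42 of the 9 members that reached 500. The members were chosen partly on these signals, so nothing is read from that contrast.

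The gene that fell in tri-CH1 was Cdt1, the factor that loads the Mcm ring onto origins. It had 657 in tri-CH1 hypoxia against 1466 in tri-CH1 normoxia, a 2.23-fold decrease, and 718 in wild-type hypoxia against 1221 in wild-type normoxia, a log2 change of -0.76. The gene that fell in wild type was Dut, the enzyme that keeps uracil nucleotides out of DNA. It had 249 in wild-type hypoxia against 513 in wild-type normoxia, a 2.06-fold decrease, and 461 in tri-CH1 hypoxia against 689 in tri-CH1 normoxia, a log2 change of -0.58.

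By role, and among the genes that reached 500 on an array, the 8 of chromatin assembly behind the fork, the 6 of nucleotide supply and the 4 of the E2F and S-phase kinase list each had a lower hypoxic signal in both genotypes. Their median log2 changes in tri-CH1 were -0.46, -0.37 and -0.61 and in wild type -0.49, -0.74 and -0.39. The brightest of these were the histone-binding Rbbp7, with -0.50 in tri-CH1 and -0.30 in wild type, the ribonucleotide reductase subunit Rrm2, with -0.38 and -0.99, and the E2F partner Tfdp1, with -0.36 and -0.40. The 6 bright genes of origin binding and helicase loading had medians of -0.61 and -0.22, and the 3 of clamp loading and single-strand binding -0.38 and -0.09. Rpa1, which binds single-stranded DNA together with Rpa2, had -0.64 in tri-CH1 and -0.59 in wild type.

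Dimmer genes of the E2F and S-phase kinase list and of nucleotide supply were mixed in sign. The counts that follow include the bright genes, and a gene is at 0 when raising low signals left no change. Of the 10 genes of the E2F and S-phase kinase list on the array, 6 were lower in hypoxia in tri-CH1, 2 higher and 2 at 0. In wild type 5 were lower, 4 higher and 1 at 0. Of the 9 of nucleotide supply, 7 were lower, 1 higher and 1 at 0 in each genotype. All 9 of chromatin assembly on the array were lower in both, the dim Chaf1b included. The share of all genes was not counted in this way, so nothing is read from these numbers. E2f1, an activator of S-phase genes and singled out here after its values were seen, was at 430 in tri-CH1 hypoxia against 188 in tri-CH1 normoxia, and at 236 in wild-type hypoxia against 179 in wild-type normoxia. It stayed under 500, so it did not count.

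In tri-CH1, polymerase, helicase activation and lagging strand genes had medians nearer to 0 than the other lists, which was not the case in wild type. The 7 polymerase and primase genes at 500 had -0.15 in tri-CH1 and -0.19 in wild type, the 3 of helicase activation -0.08 and -0.27, and the 5 of lagging strand and topology -0.12 and -0.13. The topoisomerase Top2a was higher in hypoxia, at 0.31 in tri-CH1 and 0.25 in wild type. The polymerase delta subunit Pold4 had 0.28 in tri-CH1 and -0.16 in wild type, and the fork protection factor Tipin -0.29 and 0.13. Between genotypes in normoxia 0 of the 40 wider genes that counted passed 2-fold, against 3.48% lower and 3.16% higher among 4333 genes. In hypoxia 0 of 30 did, against 3.31% lower and 3.76% higher among 4233.

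**Figure D5:**
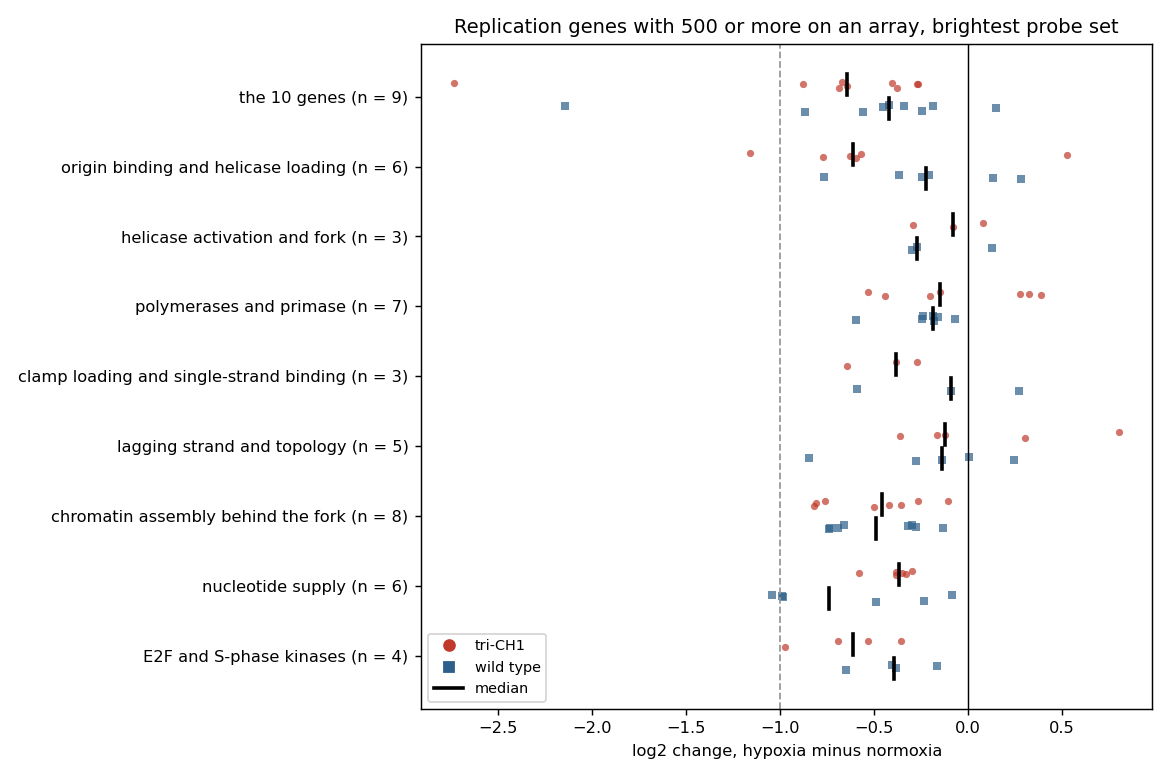
Log2 change, hypoxia minus normoxia, of replication genes that reached 500 on an array, by their brightest probe set, in tri-CH1 (circles) and wild type (squares), with the median of each list as a bar and a dashed line at a 2-fold decrease. The 9 members have medians of -0.65 and -0.42, and the polymerase and lagging strand lists lie nearer to 0 than these.

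The genes most like the mean profile of Mcm2 to Mcm7 were found over 4 arrays, by the largest difference on any array between profiles centred on their own mean. Among 4636 genes the nearest were Nde1, Slc35b1, Pgam5, Pak1ip1 and Zw10, within 0.02 to 0.06 on the log2 scale, and 230 genes lay within 0.2. Nde1, the nearest, had 364 in tri-CH1 hypoxia against 546 in tri-CH1 normoxia, and 326 in wild-type hypoxia against 445 in wild-type normoxia. The profile is thus shared by many genes on these arrays. For Fen1 1436454_x_at the nearest were Pop5, Dnajc9, Prmt7, Mthfd1 and Nsmce4a, at distances of 0.69 to 0.85, and 0 genes lay within 0.2. Pop5, the nearest, had log2 changes of -1.38 in tri-CH1 and, with its hypoxic value raised to 200, at least as far below 0 as -1.12 in wild type.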

How the data were processed

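RNA of 4 groups of fibroblasts was measured on 1 array each. The authors deposited 1 signal intensity per probe set, background-corrected with the statistical algorithm and scaled to a target of 500, per the labels' descriptions; the software version is not given in the sources used here. Gene names came from the platform annotation, which gave 1 symbol to 20380 probe sets, control probe sets left out. The members and lists were chosen with earlier results of these data known.

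From these values, signals under 200 were raised to 200 before log2 was taken. A probe set counted when the brighter array reached 500 and was called at 2-fold. A gene was read by its probe set of highest mean. Named beyond the members were wider replication genes called in a comparison, the brightest gene of each list, and the 5 genes nearest in profile. The alternatives were floors of 100, 400 and none, quantile, cyclic loess and median scaling, minimum signals of 250 and 1000, a fold of 1.5, other probe set choices, and the median without Fen1. The 2-fold rule was checked on simulated signals with known folds. Their noise was set from the spread between probe sets, so error between arrays or cultures was not covered. Python 3.11.15 with numpy 2.4.6 and pandas 2.3.3, and R 4.3.3 with limma 3.58.1, were used. The promoter windows were those of RefSeq.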

Additional observations from a re-analysis of the deposited data

Results flagged for a closer look

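Lig1 and 9 of the 42 wider replication genes that reached 500 on an array had hypoxia changes of opposite sign in the 2 genotypes, each from 1 array per group. The tri-CH1 minus wild-type difference in log2 change was -0.42 for Lig1, with -0.27 in tri-CH1 and 0.15 in wild type. It was largest for the ligase gene Lig3, at 1.08, with 0.81 in tri-CH1 and -0.28 in wild type. The others with a positive difference were Pole4 at 0.51, Prim1 at 0.46, Pold4 at 0.44 and Gins4 at 0.35. Those with a negative one were Orc2 at -0.76, Rfc2 at -0.55, Tipin at -0.42 and Top2b at -0.13. The share of all genes with opposite signs was not counted, so nothing is read from this number. The differences were not tested.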

How the results depend on the processing

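With 1 array per group, no array could be left out. No paired analysis was possible because each group holds 1 array. The count of member probe sets that fell in tri-CH1 hypoxia, 2, became 1 with signals raised to 400, 1 with a minimum signal of 1000, and 9 at 1.5-fold. It was 0 with plain _at probe sets alone, and 0 without _x_at probe sets, an alternative added after seeing the data. The count that fell in wild-type hypoxia, 1, became 0 with a minimum of 1000, 3 at 1.5-fold, 0 with plain _at probe sets and 0 without _x_at probe sets. The count higher in tri-CH1 normoxia, 0, became 4 at 1.5-fold. The count higher in tri-CH1 hypoxia than in wild-type hypoxia, 1, became 0 with quantile normalization, 0 with cyclic loess, 0 with scaling to the same median and 2 at 1.5-fold. The cause was not tested. The call lost in tri-CH1 hypoxia under the higher floor, and under the higher minimum, was that of Mcm4. The median of the 10 genes was between -0.79 and -0.53 for hypoxia in tri-CH1 and between -0.51 and -0.35 in wild type over all alternatives. For genotype in normoxia it was 0.35 and became 0.13 with scaling to the same median. For genotype in hypoxia it was 0.13 and became 0.050 with signals raised to 400, 0.082 with quantile normalization, 0.068 with cyclic loess and 0.055 with scaling to the same median. It was 0.077 when the probe sets of a gene were averaged and 0.050 when its dimmest was taken. The median response difference, -0.28, became -0.14 with scaling to the same median, which also moved the medians of all genes. The other counts and medians stayed within 1.5 times the reported value, and 0 of these reversed in sign. Scaling to the same median moved the median of all genes in the wild-type hypoxia comparison to -0.13, and that of the 10 genes to -0.51. Signals near the level of 200, such as hypoxic Fen1, limit how large a decrease can be read.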
